A study of Mus musculus with 6 samples.

Results

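This report describes 10 genes in macrophages that lack the soluble epoxide hydrolase (sEH), the enzyme that turns fatty acid epoxides into diols. They comprise *Crip2*, *Crip1* and *Csrp1*, which encode small LIM domain proteins, *Inka2*, an inhibitor of PAK kinases, the kinase genes *Pak1*, *Pak2*, *Pak4*, *Limk1* and *Limk2*, and *Carmil1*, a regulator of actin capping. The genes were picked by symbol from the deposited table of 19309 genes, and all 10 were found in it, once each. *Crip2* and *Inka2* were chosen on their lower counts in the comparison described here, and the other 8 as relatives or partners with results of the same comparison known. Differences between the genotypes in these 10 genes are therefore given as a description, with their standard error (SE) and without a p-value.

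LIM domains are zinc-binding modules that hold proteins together. CRIP and CSRP proteins consist of little else, and Crip2 has been described as a repressor of NF-κB-dependent transcription. PAK kinases act downstream of the GTPases Rac and Cdc42. Inka2 and its relative Inka1 bind Pak4 and inhibit it. PAK kinases activate LIM kinases, which phosphorylate cofilin and so restrain the severing of actin filaments. CARMIL proteins bind the actin capping protein and weaken its hold on filament ends. Together these proteins shape the actin network that macrophages use to spread, migrate and engulf particles.

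RNA was sequenced from 6 cultures of bone marrow-derived macrophages, 3 from sEH-/- and 3 from wild-type mice, with 1 mouse per library. The sEH-/- animals lacked *Ephx2* constitutively and in every cell type, not only in macrophages. Wild-type littermates of the same strain and age (8 to 10 weeks) served as controls, and C57BL/6N is the background that the methods list. The labels do not give the sex of the animals, and the methods state that female mice were used for most experiments. The paper's results add that, after a comparison of the sexes, later experiments used bone marrow of females. All cultures, wild-type and sEH-/- alike, grew for 7 days with the growth factors M-CSF and GM-CSF at 15 ng/mL. LPS at 10 ng/mL together with IFN-γ at 1 ng/mL then drove them to the inflammatory M1 state, and TGF-β1 at 10 ng/mL repolarized them to the state called M2c. Per the labels the last steps lasted 24 h and 48 h. The methods give 12 h for the former and 24 h or 48 h for the latter. All values thus compare genotypes within a single state of polarization.

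The libraries held between 4400197 and 6096440 counts. *Ephx2*, which encodes the sEH, had 26, 49 and 57 counts in the wild-type libraries and 4, 2 and 1 counts in those labelled sEH-/-. The 8 macrophage markers that were checked, among them *Adgre1*, *Csf1r* and *Cd68*, summed to between 1741 and 2200 CPM in wild-type and between 1981 and 2453 CPM in sEH-/- libraries, and none met the criteria for a call. Each had a positive log2 fold change (sEH-/- over wild-type). *Cd14* missed only the fold change criterion (0.50, SE 0.098, edgeR adjusted p = 0.0288). CPM values are counts scaled to a common library size with edgeR's TMM factors. Of the 13785 genes whose mean count exceeded 5, 2.61% met the criteria for a call, a Benjamini-Hochberg adjusted p below 0.05 in edgeR's quasi-likelihood test and a change of more than 1.5-fold. In 26.3% the ranges of the genotypes lay apart. In cultures of mixed cells, fewer cells of a type and less RNA per cell cannot be told apart.

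*Crip2* and *Crip1* are neighbours on chromosome 12 of mm10, both on the plus strand, with *Crip2* at 113140236 to 113145506 and *Crip1* at 113146316 to 113153879, a gap of 810 bp. *Inka2* lies on the plus strand of chromosome 3 from 105704599 to 105720842. The 250 bases before the first RefSeq start of these 3 genes (build GRCm38.p6, RefSeq) are shown because *Crip2* and *Inka2* were both lower in sEH-/- macrophages, whereas *Crip1*, the neighbour of *Crip2*, was not. They are chr12:113139986-113140235 for *Crip2*, chr12:113151762-113152011 for *Crip1* and chr3:105704349-105704598 for *Inka2*, each on the plus strand and free of annotated exons. The window of *Crip1* lies within the gene's annotated span. Capitals mark CAGAC or its reverse complement GTCTG, a short motif bound by Smad proteins.
Crip2: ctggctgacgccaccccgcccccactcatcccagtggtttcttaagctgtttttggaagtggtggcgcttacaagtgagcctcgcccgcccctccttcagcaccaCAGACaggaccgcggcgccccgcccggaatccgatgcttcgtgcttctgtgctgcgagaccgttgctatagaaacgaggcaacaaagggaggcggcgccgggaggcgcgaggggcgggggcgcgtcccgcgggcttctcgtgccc
Crip1: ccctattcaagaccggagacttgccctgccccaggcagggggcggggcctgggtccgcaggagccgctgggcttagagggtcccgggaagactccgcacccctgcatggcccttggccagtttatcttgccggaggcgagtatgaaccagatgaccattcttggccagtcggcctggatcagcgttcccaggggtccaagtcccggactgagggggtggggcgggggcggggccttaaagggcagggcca
Inka2: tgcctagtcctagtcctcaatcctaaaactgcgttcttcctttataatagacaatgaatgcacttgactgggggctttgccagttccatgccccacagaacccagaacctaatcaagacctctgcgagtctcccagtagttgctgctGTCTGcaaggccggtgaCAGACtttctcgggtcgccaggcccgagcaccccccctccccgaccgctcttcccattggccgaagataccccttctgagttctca

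The window of *Crip2* held 1 match to the Smad motif CAGAC or GTCTG, that of *Inka2* held 2 and that of *Crip1* none. The paper marks the shorter AGAC or GTCT as Smad elements in the human sEH promoter. AGAC also occurs in the window of *Crip1*, so that the lack of a match there depends on the letters chosen. Of the 32851 promoter windows of this length in the RefSeq table, 42.2% held at least 1 match and 11.7% at least 2, so that such matches were common. The letters GGGCGG, the GC box, or their reverse complement occurred at 4 places before *Crip2*, at 3 before *Crip1* and at none before *Inka2*, against 32.7% of all windows with at least 1. The p53 half-site had no match before *Crip2* or *Inka2* and 1 before *Crip1*, against 7.13% of all windows. GC content was 66.8% for *Crip2*, 67.2% for *Crip1* and 54.8% for *Inka2*, with a median of 52.4% over all windows. Both *Crip2* and *Inka2* have 2 RefSeq starts, and the counts per gene do not show which was used.

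All 10 genes passed the filter on low counts. Of these, 3 met the criteria for a call, against 2.61% of all tested genes. *Crip2* and *Inka2* were the 2 lower ones (1.1% of all genes) and *Carmil1* the 1 higher (1.51% of all genes). These 3 were also the genes in which the genotypes did not overlap, while in the other 7 the libraries overlapped. Among all tested genes, 26.3% did not overlap, so that 3 of 10 is near that share. Since the genes were chosen with these results known, nothing further is read from these shares. The median log2 fold change of the 10 genes was 0.030, and for all tested genes it was -0.00085.

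**Figure D1:**
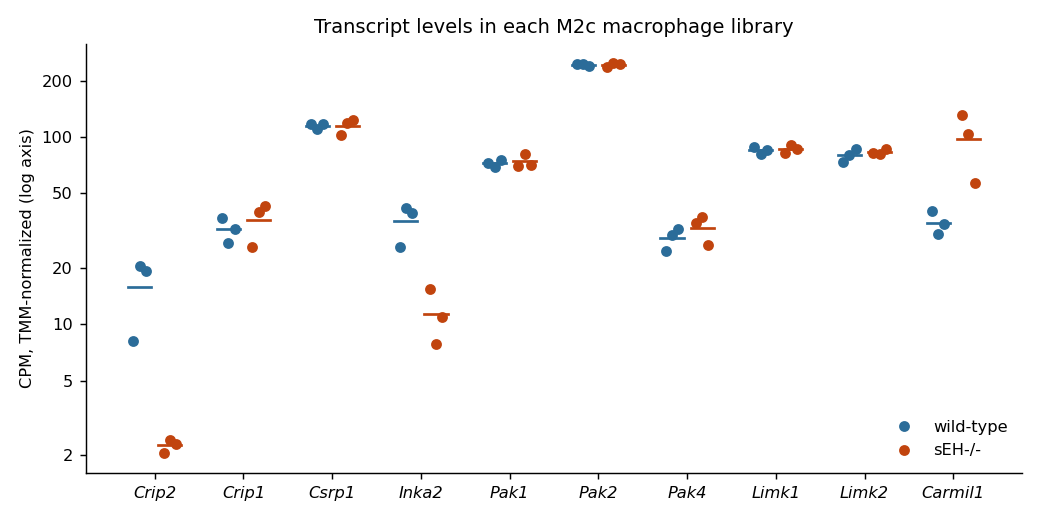
TMM-normalized CPM (log axis) of each of the 10 genes in the 3 wild-type (blue) and 3 sEH-/- (red) libraries, with 1 point per mouse and a line at the mean. *Crip2* and *Inka2* lie lower and *Carmil1* higher in all sEH-/- libraries, and the points of the other 7 genes overlap.

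*Crip2* was the gene of the group with the largest difference between the genotypes. The wild-type libraries held 37, 126 and 108 counts (8.12, 20.4 and 19.3 CPM), and the sEH-/- libraries only 12, 12 and 10 counts (2.05, 2.42 and 2.31 CPM). The sEH-/- libraries lay close to each other, whereas wild-type replicate 1 held less than the other 2 wild-type libraries and still more than any sEH-/- library. The coefficient of variation was 42.7% in the wild-type and 8.4% in the sEH-/- libraries. At 12, 12 and 10 counts, counting error alone is larger than the latter, so that 8.4% does not measure the spread between mice. The level in sEH-/- macrophages was 7.11-fold lower (log2 fold change -2.83, SE 0.38), and only 3 of the 13785 tested genes, counted from the lowest, lay below it (rank 4). Summed over the libraries, the 34 sEH-/- counts were 13.5% of the wild-type level of 271 counts after scaling for library size, and counting error alone allows 9.18% to 19.4% (exact 95% interval). With each library left out the log2 fold change ranged from -3.13 to -2.61.

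The low value in wild-type replicate 1 coincided with a low sum of the smooth muscle markers, which rested mostly on *Acta2* and *Tagln*. Stromal and endothelial genes were mixed, and their sum was not low there. The 6 smooth muscle markers that were checked summed to 9.0, 28.2 and 28.6 CPM in the wild-type and to 13.5, 17.5 and 11.3 CPM in the sEH-/- libraries. In the wild-type libraries *Tagln*, an actin-binding protein of smooth muscle, had 7, 62 and 63 counts, and *Acta2* had 30, 97 and 87. *Actg2*, *Cnn1* and *Des* were also lowest in wild-type replicate 1, whereas *Myh11* was highest there (3, 2 and 0 counts). These scarce genes had at most 6 counts in a library. The 9 stromal and endothelial markers found summed to 64.7, 110 and 61.4 CPM in the wild-type and to 76.2, 66.7 and 59.5 CPM in the sEH-/- libraries. *Kdr* made up 52, 42.1 and 33.3 CPM of the wild-type sums. Among wild-type libraries, *Kdr*, *Pecam1* and *Cdh5* were highest in replicate 1. *Col1a1*, *Col1a2*, *Col3a1*, *Dcn*, *Pdgfra* and *Pdgfrb* were lowest there. *Col1a2* had 1.76, 27.7 and 10.4 CPM in the wild-type and 1.88, 6.04 and 1.62 CPM in the sEH-/- libraries. Of the smooth muscle and the stromal and endothelial markers, 2 and 8 had enough counts to be tested, none was called, and none was at 0 in all libraries. Wild-type replicate 1 had the lowest smooth muscle sum of all 6 libraries, and *Crip2* was at 8.12 CPM there. Other marker sums were 17.6 to 21.1 CPM in the wild-type and 28.3 to 32 CPM in the sEH-/- libraries for 7 neutrophil genes, and 42.1 to 58.8 against 27 to 57.6 CPM for 5 dendritic cell genes, with *Cd209a* at 0 in all libraries. Of the 6 erythroid markers only *Klf1* was found, at 0.604 to 1.97 CPM over all libraries, and the 9 lymphocyte markers were not analysed here. The part of such cells in the levels of *Crip2* was not tested.

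*Crip1*, the paralog next to *Crip2*, did not share its pattern. Its levels were 37.1, 27.2 and 32.4 CPM in the wild-type and 25.8, 39.9 and 43.1 CPM in the sEH-/- libraries (log2 fold change 0.16, SE 0.19). The 2 genotypes overlapped, and sEH-/- replicate 1 was the lowest of all 6 libraries. The counts of *Crip1*, from 151 to 198, did not follow the library totals, since the lowest count came from the deepest sEH-/- library. Within a library, the ratio of *Crip2* to *Crip1* per exonic length was 0.238, 0.815 and 0.648 in the wild-type and 0.0863, 0.0658 and 0.0584 in the sEH-/- libraries. This ratio does not depend on the normalization. Its separation of the genotypes follows from the counts for which *Crip2* was chosen and is no separate evidence.

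*Csrp1*, which encodes a LIM protein that binds α-actinin and zyxin, had 118, 110 and 117 CPM in the wild-type and 102, 119 and 124 CPM in the sEH-/- libraries. Its log2 fold change was -0.0053 (SE 0.084), and its sign turned with the library left out, from -0.052 to 0.077. *Csrp1* carried 0.306 counts per exonic base on average, the most among the 10 genes. The authors removed duplicate reads, so that differences in genes with many reads per base could be underestimated. In the fit with a correction for 1 count per exonic base, the log2 fold change of *Csrp1* was -0.023 (SE 0.085).

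For *Inka2*, the wild-type libraries held 118, 259 and 220 counts (25.9, 42.0 and 39.4 CPM), and the sEH-/- libraries 90, 39 and 47 counts (15.4, 7.86 and 10.9 CPM). The genotypes did not overlap. As with *Crip2*, wild-type replicate 1 was the lowest and replicate 2 the highest of the wild-type libraries. In both genes this was also the order of the library totals, and the part of depth in it was not tested. Among sEH-/- libraries replicate 1 was the highest for *Inka2*, at 1.96 times the level of replicate 2. The log2 fold change was -1.64 (SE 0.24), a 3.12-fold lower level, at rank 73 from the lowest of 13785 genes. It ranged from -1.95 to -1.42 with each library left out. The 176 sEH-/- counts amounted to 31.8% of the wild-type level, with 26.7% to 37.7% as the exact 95% limits of counting error.

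*Pak4*, the kinase that Inka proteins inhibit, had 24.6, 30.1 and 32.4 CPM in the wild-type and 34.8, 37.3 and 26.6 CPM in the sEH-/- libraries. These ranges overlapped, and the log2 fold change of 0.18 (SE 0.15) was within the replicate error. Scaled by exonic length, the ratio of *Inka2* to *Pak4* was 0.779, 1.03 and 0.899 in the wild-type and 0.326, 0.156 and 0.302 in the sEH-/- libraries. The lack of overlap follows from the counts for which *Inka2* was chosen. Both transcripts were thus at a similar level in wild-type cells, with *Inka2* the lower in 2 of 3 libraries, and *Inka2* was the lower in all 3 sEH-/- libraries. A stretch of 39 bp, or 1.1% of the exonic length of *Pak4*, is shared with exons of *Samd4b*, and reads over both genes were not counted. *Inka1*, the other gene of the family, was scarce, with 4.54 to 7.51 CPM in the wild-type and 3.24 to 7.17 CPM in the sEH-/- libraries (log2 fold change -0.19, SE 0.34, edgeR adjusted p = 0.782).

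The other kinases were among the steadiest genes of the group. *Pak2*, a broadly expressed PAK that caspases can cleave, had 244, 244 and 239 CPM in the wild-type and 237, 247 and 244 CPM in the sEH-/- libraries (log2 fold change 0.00029, SE 0.066). *Pak1*, which regulates membrane ruffles and macropinocytosis, had 72.9, 69.2 and 75.3 CPM against 70, 81.4 and 70.8 CPM (log2 fold change 0.032, SE 0.085). In both genes the genotypes overlapped. The coefficient of variation between libraries of a genotype was at most 2.25% for *Pak2* and at most 8.55% for *Pak1*.

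*Limk1* had 88.0, 81.3 and 85.5 CPM in the wild-type and 82.0, 90.8 and 86.8 CPM in the sEH-/- libraries. *Limk2* had 73.3, 80.5 and 86.2 CPM against 82.7, 81.4 and 86.1 CPM. Both encode kinases of cofilin. Their log2 fold changes were 0.027 (SE 0.074) and 0.056 (SE 0.080), and the libraries of both genotypes overlapped. For *Pak1*, *Pak2*, *Limk1* and *Limk2* the sign of these small differences changed with the choice of settings. Their log2 fold changes stayed between -0.023 and 0.11 over all 14 alternative fits.

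**Figure D2:**
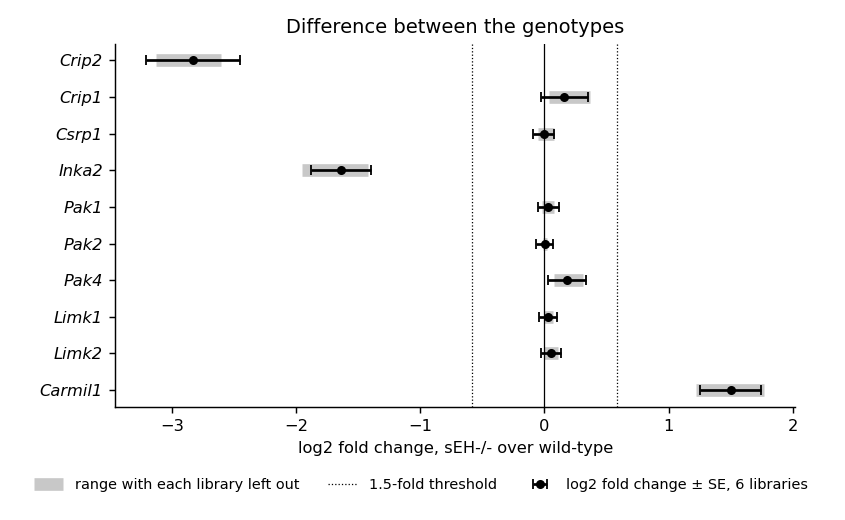
Log2 fold change of the 10 genes (sEH-/- over wild-type, points with SE as bars), with the range over fits with each library left out in turn in grey and the 1.5-fold threshold dotted. The bars of *Crip2* and *Inka2* lie wholly below the lower threshold and that of *Carmil1* above the upper, and the other 7 genes lie between the thresholds.

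*Carmil1* was the only gene of the group that was higher in sEH-/- macrophages beyond the threshold. It lies on the minus strand of chromosome 13 from 24012344 to 24280795. The wild-type libraries held 183, 188 and 191 counts (40.2, 30.5 and 34.2 CPM), and the sEH-/- libraries 766, 515 and 247 counts (131, 104 and 57.2 CPM). The wild-type libraries lay close together, whereas the sEH-/- libraries differed up to 2.29-fold among themselves, with the lowest still above every wild-type library. The log2 fold change was 1.50 (SE 0.25), a 2.83-fold higher level at rank 118 from the highest of 13785 genes, and with each library left out it ranged from 1.22 (without sEH-/- replicate 1) to 1.77 (without sEH-/- replicate 3). In sEH-/- libraries the CPM of *Carmil1* followed the order of the library totals, in wild-type libraries it ran against it, and the part of depth was not tested. Per exonic length, the ratio of *Carmil1* to *Limk1* was 0.364, 0.299 and 0.319 in the wild-type and 1.27, 0.911 and 0.525 in the sEH-/- libraries. Its lack of overlap restates the counts of *Carmil1* and is no separate evidence.

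The calls of these 3 genes depended on single wild-type libraries. Without wild-type replicate 3 none of the 3 met the criteria, and without wild-type replicate 2 only *Crip2* did. Over all genes the number of calls fell from 360 to 6 and 25 in the same fits. The fits without wild-type replicate 1 or without any one sEH-/- library kept all 3.

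Scaled by exonic length, *Csrp1* was the most abundant of the 10 transcripts in wild-type cells, with 58.9 ± 2.44 CPM per kb (SD, n = 3), ahead of *Pak2* with 35.7 ± 0.435 and *Pak1* with 18.4 ± 0.787 CPM per kb. *Crip1* (14.1 ± 2.17), *Limk2* (13.1 ± 1.06) and *Limk1* (11.9 ± 0.472 CPM per kb) followed, and neighbours in this trio overlapped. *Pak4*, *Crip2* and *Inka2* came next with 8.21 ± 1.14, 7.60 ± 3.24 and 7.47 ± 1.80 CPM per kb, and again neighbours overlapped. *Carmil1* was the lowest with 3.89 ± 0.545 CPM per kb. The order of the leading 6 was the same in sEH-/- cells. There *Carmil1* (10.8 ± 4.15 CPM per kb) stood between *Limk1* and *Pak4* (9.31 ± 1.58 CPM per kb) and overlapped both. Its libraries ran from 6.37 to 14.6 CPM per kb. *Inka2* with 2.38 ± 0.791 and *Crip2* with 1.08 ± 0.0904 CPM per kb then formed the end of the order, without overlap between them.

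**Figure D3:**
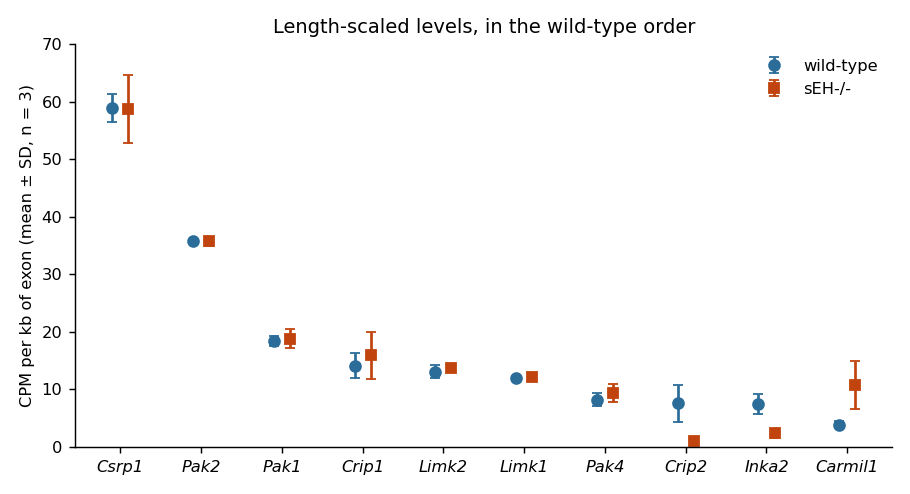
CPM per kb of exonic length (mean and SD of 3 libraries) in wild-type (blue circles) and sEH-/- macrophages (red squares), in the order of the wild-type means. *Crip2* and *Inka2* drop from about the level of *Pak4* to the end of the order. The mean of *Carmil1* moves from the end to between *Limk1* and *Pak4*, with a wide SD.

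Genes near *Crip2* and *Inka2* were examined to see whether the lower counts extended over the locus. *Mta1*, a chromatin regulator 3030 bp upstream of *Crip2*, had 108 ± 12.4 CPM in the wild-type and 104 ± 3.99 CPM in the sEH-/- libraries (SD, n = 3), or a log2 fold change of -0.061 (SE 0.089, edgeR adjusted p = 0.732). *Tedc1*, 10915 bp downstream, had 3.54 ± 0.663 against 5.13 ± 2.21 CPM (log2 fold change 0.56, SE 0.35, edgeR adjusted p = 0.376). Near *Inka2*, the small GTPase gene *Rap1a* had 67.8 ± 0.149 against 68.6 ± 5.48 CPM (0.015, SE 0.082, edgeR adjusted p = 0.934). The RNA helicase gene *Ddx20*, 17025 bp upstream on the other strand, had 57.5, 64.6 and 58.5 CPM in the wild-type and 54.0, 48.5 and 45.6 CPM in the sEH-/- libraries. Its sEH-/- libraries were all below the wild-type libraries, but the difference missed the criteria (log2 fold change -0.28, SE 0.094, edgeR adjusted p = 0.105). Among all tested genes, 26.3% did not overlap, in either direction. The noncoding genes *Gm43848* and *Gm43328* had 9.83 and 14.8 counts on average. None of the 7 genes within 50 kb of either gene was called, *Crip1* included, against 2.61% of all tested genes. At an unadjusted p below 0.05 there was 1 of them in edgeR, *Ddx20*, against 23.4% of all tested genes. Neither DESeq2 nor limma-voom called any. At such shares, a lack of calls among 7 genes cannot show how far the lower counts extended.

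**Figure D4:**
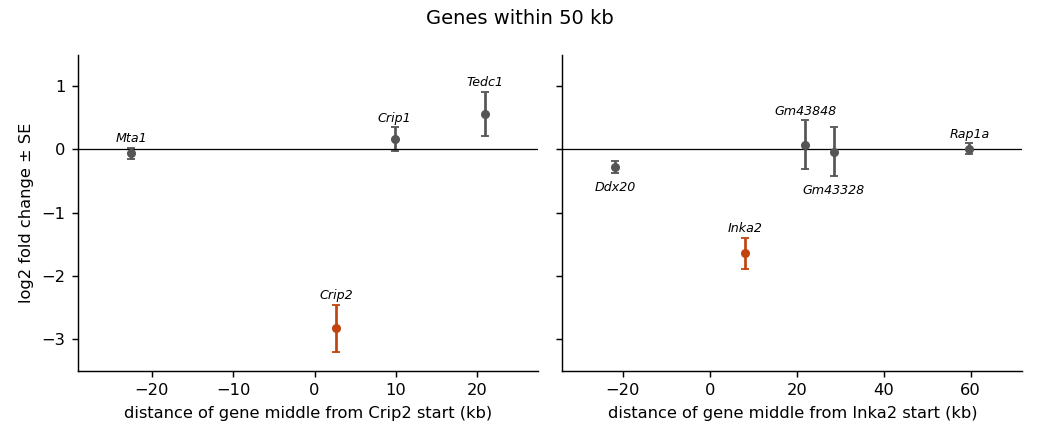
Log2 fold change (sEH-/- over wild-type, bars are SE) of genes within 50 kb of *Crip2* (left) and *Inka2* (right), plotted at the distance of each gene's middle from the start of the named gene. *Crip2* and *Inka2* (red) lie below -1, and the bars of the other genes reach no lower than -0.5.

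The genes whose levels followed *Crip2* and *Inka2* most closely over the 6 libraries were sought among the 10276 genes whose mean count was 50 or more. Likeness was measured as the Euclidean distance between log2 CPM values after subtracting each gene's own mean, so that 0 would be an equal pattern. Nearest to *Crip2*, whose own pattern had a length of 3.37 on this scale, were the cytokine gene *Gdf15* at a distance of 1.24, *Ddias* at 1.32 and *Traf4*, an adaptor of the TRAF family, at 1.35. *Gdf15* had 21.1, 60.7 and 57.8 CPM in the wild-type and 11.8, 4.03 and 7.41 CPM in the sEH-/- libraries, again with replicate 1 the lowest of the wild-type libraries. Nearest to *Inka2*, with a length of 2.20, were *Gtse1*, a microtubule-binding protein of the G2 phase, at 0.293, *Cdkn1c*, an inhibitor of cyclin-dependent kinases, at 0.328, and *Trim7* at 0.419. *Gtse1* had 29.4, 54.3 and 45.3 CPM in the wild-type and 21.5, 11.1 and 13.9 CPM in the sEH-/- libraries, and within each genotype the libraries stood in the same order as for *Inka2*. These genes were found by their likeness over the same libraries, so that their differences between the genotypes are no separate evidence.

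The same search for *Carmil1*, which was added after its values had been seen, gave *Ptger1*, a receptor of prostaglandin E2, at a distance of 0.381 from a pattern of length 1.94. *Ptger1* had 6.14, 5.18 and 5.73 CPM in the wild-type and 16.9, 16.7 and 10.2 CPM in the sEH-/- libraries. The noncoding gene *A930037H05Rik* (0.501) and *Tnfsf13b*, which encodes the B cell survival factor BAFF (0.504), followed.

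The remaining genes of these pathways were examined in 5 lists, from which the 10 genes were left out. Their counts are to be read against all tested genes, of which 2.61% were called, 1.51% higher and 1.1% lower. An unadjusted p below 0.05 in edgeR was found in 23.4% of all tested genes. That share was 30.3% in the LIM domain list, 41.2% in the PAK list and 23.5% in the LIM kinase and cofilin list. It was 9.09% in the capping list and 33.3% in the WAVE and Arp2/3 list. Of 33 tested genes with LIM domains, 1 (3.03%, against 2.61% of all genes) was called higher and none lower in sEH-/- macrophages, with a median log2 fold change of 0.072. The called gene was *Limd2*, a small LIM protein, which had 47.4, 34.8 and 48.1 CPM in the wild-type and 66.1, 98.7 and 69.7 CPM in the sEH-/- libraries (log2 fold change 0.85, SE 0.17, edgeR adjusted p = 0.0288). *Lasp1* and *Mical2* had the highest mean counts of the list, not scaled by length. *Lasp1*, an actin-binding adaptor, had 320 ± 17.4 CPM in the wild-type against 334 ± 22.9 CPM in the sEH-/- libraries (0.059, SE 0.083, edgeR adjusted p = 0.721). *Mical2*, an oxidase of actin, had 285 ± 17.2 against 284 ± 28.4 CPM (-0.0072, SE 0.090, edgeR adjusted p = 0.972).

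Of 17 tested PAK relatives and partners, among them *Rac1*, *Git1* and *Arhgef7*, none was called by edgeR, DESeq2 or limma-voom, and 7 (41.2%, against 23.4% of all genes) had an unadjusted p below 0.05 in edgeR. The median log2 fold change was 0.017, and the values lay between -0.74 and 0.76. *Cdc42* and *Rac2*, GTPases that activate PAK kinases, had log2 fold changes of 0.10 (SE 0.096, edgeR adjusted p = 0.574) and 0.084 (SE 0.082, edgeR adjusted p = 0.586).

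Of 17 tested genes around LIM kinases and cofilin, 1 (5.88%, against 2.61% of all genes) was called higher and none lower, with a median of 0.028. It was *Ssh2*, a phosphatase that reactivates cofilin, with 101, 88.3 and 77.8 CPM in the wild-type and 133, 166 and 119 CPM in the sEH-/- libraries (log2 fold change 0.65, SE 0.13, edgeR adjusted p = 0.0277). *Wdr1* and *Cap1*, which assist cofilin, had 0.13 (SE 0.089, edgeR adjusted p = 0.432) and 0.093 (SE 0.093, edgeR adjusted p = 0.600).

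Of 11 tested genes around CARMIL proteins and capping protein, 1 (9.09%, against 2.61% of all genes) was called higher and none lower, with a median of 0.085. It was *Rcsd1*, which encodes a partner of capping protein, with 22.6, 16.7 and 20 CPM in the wild-type and 32.6, 36.9 and 34.0 CPM in the sEH-/- libraries (log2 fold change 0.81, SE 0.14, edgeR adjusted p = 0.0188). The capping protein inhibitor *Mtpn* (0.086, SE 0.096, edgeR adjusted p = 0.640) and the capping protein subunit gene *Capza2* (0.054, SE 0.088, edgeR adjusted p = 0.763) had the highest mean counts, not scaled by length. Of 24 tested genes of the WAVE and Arp2/3 complexes, which nucleate branched actin, none was called by edgeR, DESeq2 or limma-voom, and 8 (33.3%, against 23.4% of all genes) had an unadjusted p below 0.05 in edgeR. Their median log2 fold change was 0.046, with *Nckap1l* at 0.071 (SE 0.11, edgeR adjusted p = 0.746) and *Cyfip1* at 0.20 (SE 0.088, edgeR adjusted p = 0.194). *Limd2*, *Ssh2* and *Rcsd1* each lost their call without sEH-/- replicate 2 and without wild-type replicate 2 or 3, with adjusted p of up to 0.134, 0.140 and 0.120 in edgeR.

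**Figure D5:**
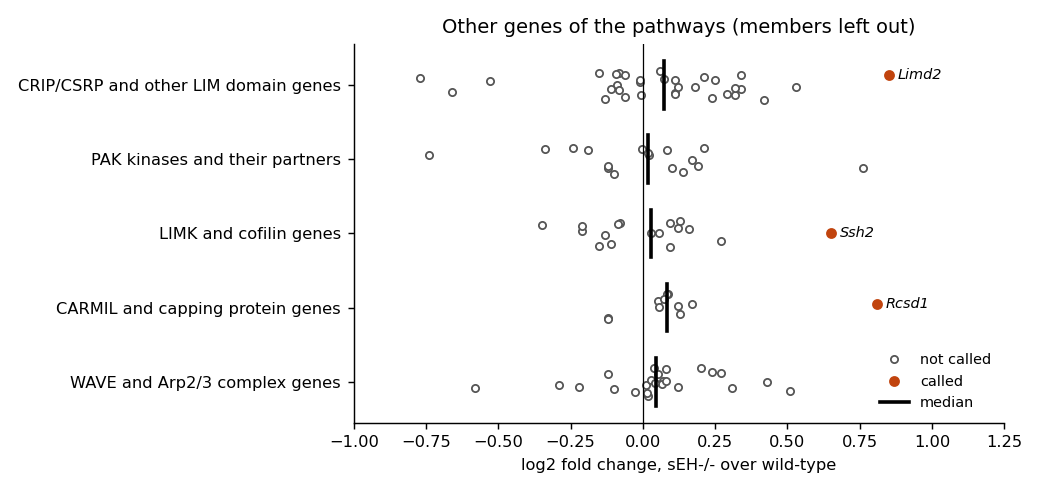
Log2 fold change (sEH-/- over wild-type) of the tested genes in the 5 pathway lists, with called genes filled and named, other genes open, and a line at each list's median. *Limd2*, *Ssh2* and *Rcsd1* are the 3 called genes, and the medians lie between 0.017 and 0.085.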

How the data were processed

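Per the labels and the paper's methods, the authors trimmed reads with Trimmomatic 0.39, aligned them to mm10 with STAR, dropped duplicates, reads with several positions and reads from ribosomal or mitochondrial RNA, and used featureCounts for strand-aware exon counts without reads that span several genes. Labels and methods name different library kits and versions of some tools. The deposited counts are whole numbers without normalization. Removal of duplicates limits the counts per exonic base.

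The counts were analysed with edgeR 4.0.16 in R 4.3.3 (TMM, glmQLFit and glmQLFTest, genotype as the only term) for the 13785 genes whose mean count exceeded 5. Criteria for a call were a Benjamini-Hochberg adjusted p below 0.05 over these genes and an absolute log2 fold change above 0.585, the paper's thresholds. SE was derived as the ratio of the log2 fold change to the root of the F statistic. TMM factors lay between 0.982 and 1.03. Exonic lengths are from GENCODE M21 (same build). DESeq2 1.42.0 and limma 3.58.1 (voom) were alternatives, with RLE factors, library totals alone, no filter, filterByExpr, a replicate block, a correction for 1 count per exonic base, no fold threshold, and each library left out. The script was tested on simulated data. With 3 against 3 mice, an exact permutation test of a single gene cannot go below p = 0.1 (two-sided), so that the p-values come from the fit over all genes.

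The 10 genes and the lists were chosen with earlier results of these data known. Named genes are these 10, the called genes of each list and its 2 genes with the highest mean count, genes within 50 kb of *Crip2* or *Inka2*, and the 3 genes nearest to each in pattern. *Inka1*, *Carmil1*'s nearest genes and the markers named beside *Crip2* were named after their values were seen. Promoter motifs were likewise chosen with results known. Of the 10 genes, 8 are in the promoter table. Replicates differed by more than sampling noise (chi-square per degree of freedom 2.24 to 4.89). Counting intervals are exact (conditional binomial) and cover counting error only.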

Additional observations from a re-analysis of the deposited data

How the results depend on the processing

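The log2 fold changes of the 10 genes moved by less than the spread between replicates in all 14 alternative fits. *Crip2*, *Inka2*, *Carmil1*, *Crip1* and *Pak4* kept their sign, while *Csrp1*, *Pak1*, *Pak2*, *Limk1* and *Limk2*, all near 0, changed sign in at least 1 fit. The number of the 10 genes past the criteria was 3 in every fit with all libraries and 0 to 3 with 1 library left out. Over all genes the number of calls was 360, against 234 with the replicate block, 553 without the fold change threshold and 6 to 625 with 1 library left out. In the same fits with 1 library left out, it was 0 to 2 for the LIM domain list, 0 to 1 for the PAK list, 0 to 1 for the LIM kinase and cofilin list, 0 to 1 for the capping list and 0 to 2 for the WAVE and Arp2/3 list. Without a filter on low counts, 2 LIM domain genes were called, *Limd2* and *Ldb3*. The cause of these changes was not tested. Same-numbered libraries of the 2 genotypes did not deviate together (correlation of deviations from the genotype means across genes -0.0743, -0.244 and -0.033). With 3 libraries per genotype, these values cannot show whether the numbers pair the mice. Under the replicate block the log2 fold changes were -2.73 for *Crip2*, -1.64 for *Inka2* and 1.43 for *Carmil1*. *Crip2* rests on 34 counts in the sEH-/- libraries.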
